A study of Mus musculus with 7 samples.

Results

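IL-5, IL-3 and GM-CSF (granulocyte-macrophage colony-stimulating factor) are the cytokines that keep eosinophils alive, and the mRNA of the 5 chains that form their receptors in the mouse is described here. The chains are the products of Il5ra, Il3ra, Csf2ra, Csf2rb and Csf2rb2, chosen by gene symbol in the annotation of the array. Each of the 5 genes had 1 probe set, of 35557 probe sets and 18190 named genes measured. Eosinophils, granulocytes of allergic inflammation, had been sorted from lung tissue of mice of the inbred BALB/c strain. The airways had been challenged with saline (4 libraries) or with OVA, the egg white allergen ovalbumin (3 libraries). Genotype, sex, age and the schedule of sensitisation and challenge are not given in the sources used here, nor is the gate of the sort beyond its high purity. The labels do not say if the libraries within a group are separate animals or pools, so each p-value below measures the spread between libraries, which may be technical.

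Each of these cytokines binds its own alpha chain, which gives the receptor its specificity, and the alpha chain then pairs with a beta chain that carries most of the signal. The beta chain encoded by Csf2rb serves all 3 cytokines. Mice have an additional beta chain, encoded by the close paralogue Csf2rb2, that pairs with the IL-3 receptor alpha chain only. The beta chain binds the kinase JAK2, which activates STAT5, and STAT5 in turn induces survival genes and the feedback inhibitors that switch the signal off.

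Values are log2 levels after robust multi-array averaging (RMA) of mouse gene 1.0 ST arrays, given as mean ± SD over libraries. Differences are OVA minus saline on the log2 scale with their standard error (SE) and 95% confidence interval, from limma, with Benjamini-Hochberg adjustment over all 18190 genes. Called means an adjusted p below 0.05, and rose or fell is written of called genes only. By this rule 5.27% of all genes were higher and 1.17% lower, 6.44% in all. Scaling shifted that split: 81.9% of calls were higher in the values as deposited, 64.6% after a second quantile normalization, 70.1% after cyclic loess and 86.8% after median centring. The median difference of all genes was -0.07.

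As a list, the markers of the labelled cell were bright. The eotaxin receptor gene Ccr3 was 11.97 ± 0.06 in saline and 11.84 ± 0.12 in OVA libraries. The mean of the 12 measured eosinophil markers was 11.037 to 11.204 in saline and 10.997 to 11.41 in OVA. Every other marker list had a lower mean in each library. Of the 12, 0 lay under the median of the negative control probe sets in all libraries. The neutrophil (10 measured) and epithelial (8) lists likewise held 0 such members, so this count cannot identify the cell. The eosinophil markers moved both ways: 3 of 12 rose, Siglecf by 0.83, the peroxidase gene Epx by 2.69 and the major basic protein gene Prg2 by 1.19. The other calls were 4 that fell, the histidine decarboxylase gene Hdc by 1.07 and the ribonuclease genes Ear1 by 0.62, Ear2 by 0.48 and Ear6 by 0.96. Leaving out 1 library gave 3 higher and 1 to 4 lower. Of 18 alveolar macrophage markers 10 were higher and 1, Ear2, lower in OVA (of all genes, 5.27% and 1.17%). The 10 were Chil3 (by 6.20), Car4 (5.355), Ctsk (2.92), Atp6v0d2 (2.275), Itgax (2.07), Mrc1 (2.065), Pparg (1.54), Lpl (1.48), Fabp5 (0.91) and Olr1 (0.86). The mean of that list was 6.89 to 7.18 in saline and 8.18 to 8.68 in OVA, with Fabp4 under the negative control median in every library. Among its members that were not called were Marco, a scavenger receptor, and Siglec1, a sialic acid binding lectin. They were 6.10 ± 0.20 and 6.68 ± 0.16 in saline against 5.91 ± 0.21 and 6.44 ± 0.09 in OVA. The other uncalled members went both ways: Krt79 and Cidec differed by -0.11 and -0.30, and Plet1, Fabp4 and Abcg1 by 0.63, 0.42 and 0.125. Of 10 neutrophil markers 3 were higher (list mean 7.26 to 7.68 in saline, 7.51 to 8.14 in OVA), of 8 epithelial markers 2 (7.39 to 7.88 and 8.0 to 8.1) and of 12 monocyte markers 1 (6.46 to 6.72 and 6.64 to 6.90). With 1 library left out these counts ran from 7 to 10 for alveolar macrophages, 1 to 3 for neutrophils, 0 to 3 for epithelium and 0 to 1 for monocytes. In the lists of basophils and mast cells (11 measured), dendritic cells (12), T cells with type 2 innate lymphoid cells (11), and B cells (8), limma called 0 members. Of them 0, 1, 1 and 1 had an unadjusted p under 0.05, against 20.8% of all genes. Macrophages and neutrophils also express Csf2ra and Csf2rb, and the part of such cells in the values below was not tested. In sorted cells measured in bulk, fewer cells of a kind and less RNA per cell cannot be told apart.

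None of the 5 receptor chains was called. By limma 0 of 5 passed the adjusted threshold, against 6.44% of all genes, and 0 of 5 had an unadjusted p under 0.05, against 20.8% of all genes. The differences ran from -0.35 for Il5ra to 0.14 for Csf2ra and Csf2rb. The intervals set bounds on what these libraries allow. With all libraries in the fit, for none of the 5 chains did the interval reach a 2-fold change in either direction. Each difference kept its sign under every alternative processing that could be run for that gene, 16 or 17 per gene.

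**Figure D1:**
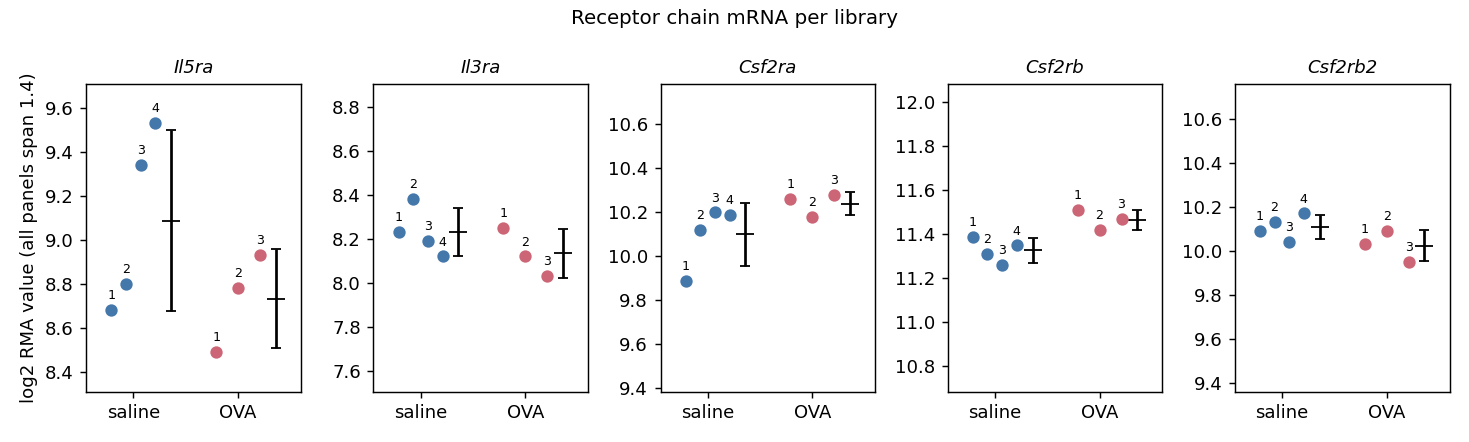
Level of each receptor chain in every library, as log2 RMA value, for saline (blue, numbered 1 to 4) and OVA (red, numbered 1 to 3). Bars show mean and SD, and all panels span the same 1.4 log2 units. Il5ra spread most within saline (8.68 to 9.53), and only for Csf2rb did all OVA libraries lie above all saline libraries.

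The alpha chain of the IL-5 receptor, Il5ra, is the chain that makes eosinophils respond to IL-5. Its levels were 8.68, 8.80, 9.34 and 9.53 in saline replicates 1 to 4 and 8.49, 8.78 and 8.93 in OVA replicates 1 to 3. Saline replicates 1 and 2 lay inside the OVA range, and saline replicates 3 and 4 lay above every OVA library. The means were 9.09 ± 0.41 (n = 4) and 8.73 ± 0.22 (n = 3), a difference of -0.35 (SE 0.21, interval -0.83 to 0.13, limma adjusted p = 0.357). The OVA level was thus 0.782 of the saline level, with an interval of 0.561 to 1.09. The saline libraries varied more for Il5ra than for most genes: 8.01% of all genes had a larger SD in saline.

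The call on Il5ra depended on which saline libraries were used and on scaling. Without saline replicates 1 and 2 the difference was -0.70 (limma adjusted p = 0.0334), and without saline replicates 3 and 4 it was -0.01 (limma adjusted p = 0.977). A second quantile normalization gave -0.53 (limma adjusted p = 0.0451). The same saline libraries also differed in the SD across all genes, 1.72 and 1.67 in replicates 1 and 2 and 1.82 and 1.86 in replicates 3 and 4, against 1.80 to 1.90 in OVA. The part of this in the Il5ra values was not tested beyond these alternatives. Members of the neutrophil marker list went both ways between saline replicates 1 and 2 and saline replicates 3 and 4. S100a8 was 7.38 and 7.09 against 9.97 and 9.71, and S100a9 was 9.63 and 9.71 against 11.42 and 11.35. S100a8 was also high in OVA replicate 3 (9.70, against 7.46 and 7.88). Lower in saline replicates 3 and 4 were, among others, Camp (6.82 and 6.57 against 6.33 and 6.13), Ngp (7.19 and 6.88 against 6.71 and 6.38) and Retnlg (12.82 and 12.75 against 12.62 and 12.65). Other marker lists also held members apart between these libraries, in both directions. Higher in saline replicates 3 and 4 were, among others, Lyz2 of the monocyte list (6.80 and 6.49 against 9.23 and 8.76) and Cd3d of the T cell list (8.51 and 8.87 against 9.80 and 9.65). Lower were, among others, Cx3cr1 (7.77 and 7.64 against 7.17 and 6.92) and Cd4 (6.59 and 6.37 against 6.13 and 6.08). The part of RNA from neutrophils or other cells in the Il5ra values was not tested. Over all 16 alternatives the adjusted p of Il5ra by limma ran from 0.0334 to 0.977.

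Il3ra encodes the IL-3 receptor alpha chain, best known from basophils and mast cells. It was 8.23, 8.38, 8.19 and 8.12 in saline replicates 1 to 4 and 8.25, 8.12 and 8.03 in OVA replicates 1 to 3. The groups overlapped, with OVA replicate 3 below and the other two OVA libraries within the saline range, OVA replicate 2 at its lower end. The difference was -0.10 (SE 0.11, interval -0.34 to 0.15, limma adjusted p = 0.594), and -0.155 to -0.045 with 1 library left out. Il3ra was the dimmest of the 5 against background, above 83.8% to 87.5% of the 5222 negative control probe sets of each array. The range was 88.8% to 96.2% for Il5ra, and at least 96.8% for the other chains in every library. Signal near background compresses differences, so the intervals for Il3ra and Il5ra hold for the measured signal.

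Csf2ra encodes the GM-CSF receptor alpha chain. Its levels were 9.89, 10.12, 10.20 and 10.19 in saline replicates 1 to 4 and 10.26, 10.18 and 10.28 in OVA replicates 1 to 3. OVA replicates 1 and 3 lay above the saline libraries and OVA replicate 2 among them, while saline replicate 1 was the lowest of all. The difference was 0.14 (SE 0.11, interval -0.11 to 0.39, limma adjusted p = 0.462). Without saline replicate 1 it was 0.07.

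The shared beta chain, Csf2rb, varied little. It was 11.39, 11.31, 11.26 and 11.35 in saline replicates 1 to 4 and 11.51, 11.42 and 11.47 in OVA replicates 1 to 3. Every OVA library lay above every saline library, as was the case for 11% of all genes (19.6% had ranges apart in either direction), so 1 of 5 chains is no result about the chains. The difference was 0.14 (SE 0.09, interval -0.07 to 0.35, limma adjusted p = 0.4), or 1.1-fold with an interval of 0.952 to 1.27. The SD over the saline libraries was 0.06, and 95.7% of all genes had a larger one.

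The IL-3 specific beta chain, Csf2rb2, lies beside Csf2rb on chromosome 15 with 0 annotated protein-coding genes between them (assembly GRCm38.p6). Its levels were 10.09, 10.13, 10.04 and 10.17 in saline replicates 1 to 4 and 10.03, 10.09 and 9.95 in OVA replicates 1 to 3. The groups overlapped, and the difference was -0.08 (SE 0.10, interval -0.30 to 0.13, limma adjusted p = 0.599). Leaving out 1 library moved it from -0.1175 to -0.0475. The array annotation marks 126 probe sets as open to cross-hybridisation and 0 of the 5 described here. Csf2rb and Csf2rb2 are nonetheless close paralogues, and how far their separate values are free of shared signal is uncertain.

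**Figure D2:**
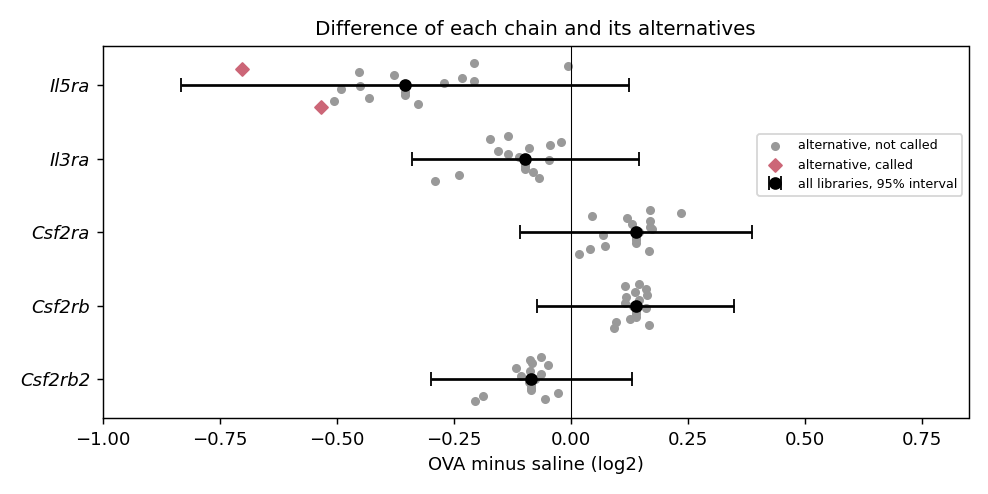
Difference OVA minus saline (log2) of each chain, with all libraries and its 95% interval (black) and under each alternative processing or left-out library (grey, not called; red diamonds, called). The 2 called alternatives both concern Il5ra, at -0.70 and -0.53.

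Whether a chain moved unlike the shared beta chain was compared within each library, as the log2 ratio of the chain to Csf2rb. Such a ratio is unaffected by a uniform shift of an array, and it does not say which chain is more abundant. The 4 ratios were each compared by a 2-sided exact permutation test. With 35 ways to assign 3 of 7 libraries it cannot give a p below 0.0286. Adjusted over the 4 ratios, a p below 0.05 could be had only if at least 3 of them reached that smallest p, so the adjusted values say little here.

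The ratio of Csf2rb2 to Csf2rb was -1.30, -1.18, -1.22 and -1.18 in saline replicates 1 to 4 and -1.48, -1.33 and -1.52 in OVA replicates 1 to 3. Every OVA library lay below every saline library. The difference was -0.22, an OVA ratio of 0.857 of that in saline (exact permutation p = 0.0286, adjusted 0.114). That is the smallest p the design can give. The ratio of Il3ra to Csf2rb was also lower in each OVA library (-3.44 to -3.26) than in any saline library (-3.23 to -2.93). It differed by -0.24 (exact permutation p = 0.0571, adjusted 0.114). The ratio of Il5ra to Csf2rb ran from -2.71 to -1.82 in saline and from -3.02 to -2.54 in OVA, a difference of -0.49 (exact permutation p = 0.229, adjusted 0.305). The ratio of Csf2ra to Csf2rb had the same mean in both groups, -1.23, with an exact permutation p of 1. All 4 ratios share Csf2rb, so they are not independent of each other. Csf2rb itself was higher in every OVA library than in any saline library, by 0.14 on average. By themselves Csf2rb2 differed by -0.08 and Il3ra by -0.10, with overlap. The share of all genes whose ratio to Csf2rb lies apart was not computed, so the ratios without overlap are no result about the chains.

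**Figure D3:**
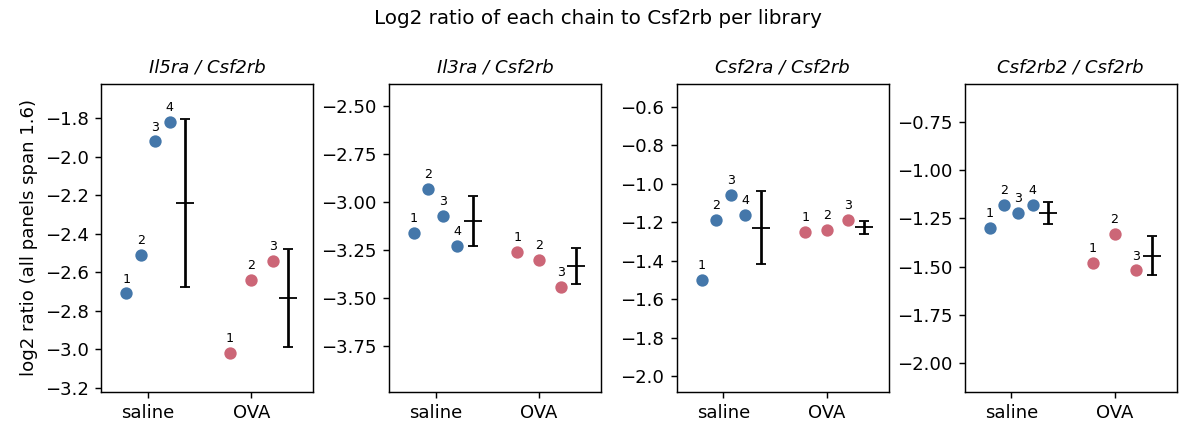
Log2 ratio of each chain to the shared beta chain Csf2rb in every library, for saline (blue, 1 to 4) and OVA (red, 1 to 3), with mean and SD. All panels span the same 1.6 log2 units. The groups do not overlap for Il3ra and Csf2rb2, and the share of all genes with such a ratio was not computed.

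The genes whose levels followed each chain most closely over the 7 libraries were sought among the 2118 genes brighter on average than 95% of the negative controls. These correlations describe the shape over libraries of the same arrays and carry no test. Il5ra ran most closely with Rpl29 (Pearson r = 0.994), Churc1 (0.986) and Rps21 (0.986), which were likewise higher in saline replicates 3 and 4 than in every other library. Rpl29 was 12.01 and 12.09 in these libraries and 11.50 to 11.74 elsewhere. Il3ra ran with Myo18b (0.975), 4930515G13Rik (0.969) and Krtap17-1 (0.96), and Csf2ra with Usp9x (0.975), Zc3h7a (0.967) and Usp16 (0.96). The shared beta chain ran with Hspe1 (0.97), Slc2a3 (0.954) and Cdc73 (0.949), while the closest genes to Csf2rb2 reached lower values, Sdcbp 0.892, Actr2 0.879 and Arl4c 0.814. Of these 15 genes, Slc2a3 was the only called gene, higher by 0.87 (SE 0.16, limma adjusted p = 0.0128), and its call was lost without OVA replicate 1, 2 or 3 (0.0601, 0.0643 and 0.0573) and with all probe sets fitted (0.0506). Cdc73 was called under 3 alternatives.

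The genes of the 3 ligands were at or near background in the sorted cells. Il5 was 4.49 ± 0.05 in saline and 4.49 ± 0.36 in OVA, and Il3 was 4.34 ± 0.18 and 4.21 ± 0.18. Both lay under the median of the negative control probe sets, 5.86 to 6.17, in all 7 libraries. Csf2 was 6.15 ± 0.11 in saline and 5.89 ± 0.07 in OVA, with every OVA library below every saline library, and it was not called (difference -0.26, limma adjusted p = 0.206). By limma 0 of 3 ligand genes were called, and 1 of 3, Csf2, had an unadjusted p under 0.05 (20.8% of all genes did).

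Of 20 genes for kinases, STATs and adaptors that act directly at these receptors, limma called 0 in either direction, and 7 had an unadjusted p under 0.05 (20.8% of all genes did). The median difference of the list was 0.05, against -0.07 for all genes. The kinase gene Jak1 was 11.47 ± 0.09 in saline and 11.34 ± 0.08 in OVA. Sdcbp, whose product syntenin binds the tail of the IL-5 receptor alpha chain in human cells, was 12.25 ± 0.02 and 12.13 ± 0.11.

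Singled out after their values were seen, the kinase gene of the beta chain and its STATs were also not called. Jak2 was 9.80, 10.23, 10.30 and 10.50 in saline replicates 1 to 4 and 10.31, 10.35 and 10.36 in OVA, a difference of 0.13 (limma adjusted p = 0.61). Stat5a differed by -0.01 and Stat5b by -0.08 (limma adjusted p = 0.943 and 0.683). Lyn, the Src-family kinase bound to the beta chain, was 10.46 to 10.84 in saline and 10.34 to 10.39 in OVA, without overlap (-0.31, limma adjusted p = 0.163). It was called lower under 4 alternatives, among them without saline replicates 1 and 2 together (-0.44, limma adjusted p = 0.042). Other members of the list, also chosen after their values were seen, lay the other way. Sos1, which encodes a Ras exchange factor, differed by 0.53 (limma adjusted p = 0.0872, called under 4 alternatives), the adaptor gene Gab2 by 0.45 (0.102, called under 1) and the phosphatase gene Ptpn11 by 0.35 (0.204). In these 3 genes every OVA library lay above every saline library, against 1 gene of the list of 20, Lyn, with the reverse. Of all genes 11% lay apart upwards and 8.6% downwards, so these counts are no result about the list. The kinase gene Btk differed by 0.54 with overlap (limma adjusted p = 0.166, called under 3 alternatives).

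**Figure D4:**
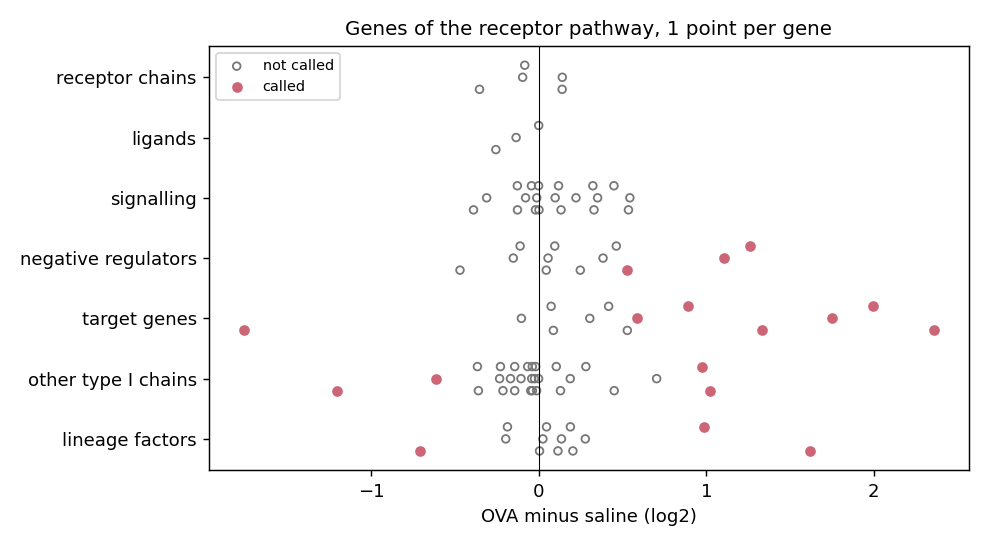
Difference OVA minus saline (log2) of the measured genes in each list, 1 point per gene, filled red where limma called the gene. The receptor chains, ligands and signalling genes hold 0 called genes, while called genes lie on both sides among the target genes, the other type I chains and the lineage factors.

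Among genes that act below the receptors, calls were made. Of 12 negative regulators 3 rose and 0 fell, where 5.27% of all genes were higher and 1.17% lower. The list median was 0.17. These lists were chosen with earlier results of these data known, and no test was made of the list as a whole. Cish and Socs2 encode feedback inhibitors that STAT5 induces, and Cbl encodes a ubiquitin ligase that removes activated receptors.

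Socs2 was 6.96, 7.05, 7.06 and 6.97 in saline replicates 1 to 4 and 8.25, 8.39 and 8.17 in OVA replicates 1 to 3. The groups lay far apart compared with their spread, and Socs2 rose by 1.26 (SE 0.10, limma adjusted p = 0.000147). Cish was 8.87, 8.14, 9.04 and 9.35 in saline and 10.05, 9.90 and 9.91 in OVA. It rose by 1.10 (SE 0.24, limma adjusted p = 0.0267), and the call was lost without saline replicate 1 (0.0681), OVA replicate 1 (0.0997), OVA replicate 2 (0.0979) or OVA replicate 3 (0.111) and with all probe sets fitted (0.0892). Cbl rose by 0.53 (SE 0.12, limma adjusted p = 0.0316), a call lost without saline replicate 1 (0.068), saline replicates 1 and 2 together (0.0703) or OVA replicate 1, 2 or 3 (0.0962, 0.125 and 0.131), and after quantile normalization (0.0884), cyclic loess (0.0523), a robust variance trend (0.0632) or the fit of all probe sets (0.0801). Inpp5d was called higher with array weights (limma adjusted p = 0.0265). The phosphatase genes Ptpn6, Inpp5d and Ptpn1 were not called with all libraries weighted equally and differed by 0.10, 0.38 and 0.04, and the signs of Ptpn6 and Ptpn1 turned under a second quantile normalization. The other uncalled members went both ways. Cblb differed by -0.47 (called lower under 4 alternatives), Sh2b3 by -0.15 and Socs1 by -0.11. Ptpn2 differed by 0.46 (called higher under 3), Pias1 by 0.25 (called higher under 1) and Socs3 by 0.055, whose sign turned under 4 alternatives.

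Of 13 genes on which these cytokines are known to act in myeloid or lymphoid cells, 6 rose and 1 fell. Of all genes 5.27% were higher and 1.17% lower. The median difference of the list was 0.53. Bcl2l1, which encodes the survival protein BCL-XL, was 8.78, 8.41, 8.56 and 8.44 in saline replicates 1 to 4 and 10.35, 10.47 and 10.08 in OVA replicates 1 to 3. It rose by 1.75 (SE 0.13, limma adjusted p = 0.000119), with no overlap. Pim2, a survival kinase gene, was 7.87, 7.24, 7.39 and 7.37 in saline and 8.81, 8.94 and 8.65 in OVA, and rose by 1.33 (SE 0.16, limma adjusted p = 0.00142). The survival gene Bcl2 rose by 0.89 (SE 0.18, limma adjusted p = 0.0175), a call lost without OVA replicate 1, 2 or 3 (0.0638, 0.0942 and 0.0689) and with all probe sets fitted (0.0646).

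The activation marker Cd69 rose by 2.36 (SE 0.26, limma adjusted p = 0.000916). Il1rl1, the IL-33 receptor gene, rose by 0.59 (SE 0.14, limma adjusted p = 0.0373). The call on Il1rl1 was lost without saline replicate 1, 2 or 3 (0.0772, 0.0662 and 0.0648), without saline replicates 1 and 2 together (0.107) and without OVA replicate 1 or 2 (0.124 and 0.177), and after quantile normalization (0.0762) or cyclic loess (0.0617), with the replicate block (0.0525) and with all probe sets fitted (0.0972). Bcl6 and Myc did not follow the name of the list. Bcl6, a transcriptional repressor that STAT5 represses in lymphocytes, was 6.77 to 7.02 in saline and 8.23 to 9.24 in OVA and rose by 2.00 (SE 0.22, limma adjusted p = 0.000916). Myc, a growth gene that these cytokines induce, was 9.63 to 9.87 in saline and 7.32, 8.22 and 8.44 in OVA. It fell by 1.76 (SE 0.23, limma adjusted p = 0.00236). Mcl1, Cdkn1a and Bcl2a1d, 3 bright members of the list, were not called and differed by 0.30, 0.53 and 0.42. The other uncalled members, Pim1, Osm and Ccnd2, overlapped between the groups and differed by 0.09, -0.10 and 0.07. Their signs turned under some alternatives. Mcl1 was called higher with array weights (limma adjusted p = 0.0446) and with a robust variance trend (0.0497). Cdkn1a and Bcl2a1d were each called higher under 8 alternatives, among them without saline replicate 4 (limma adjusted p = 0.0392 and 0.0293).

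**Figure D5:**
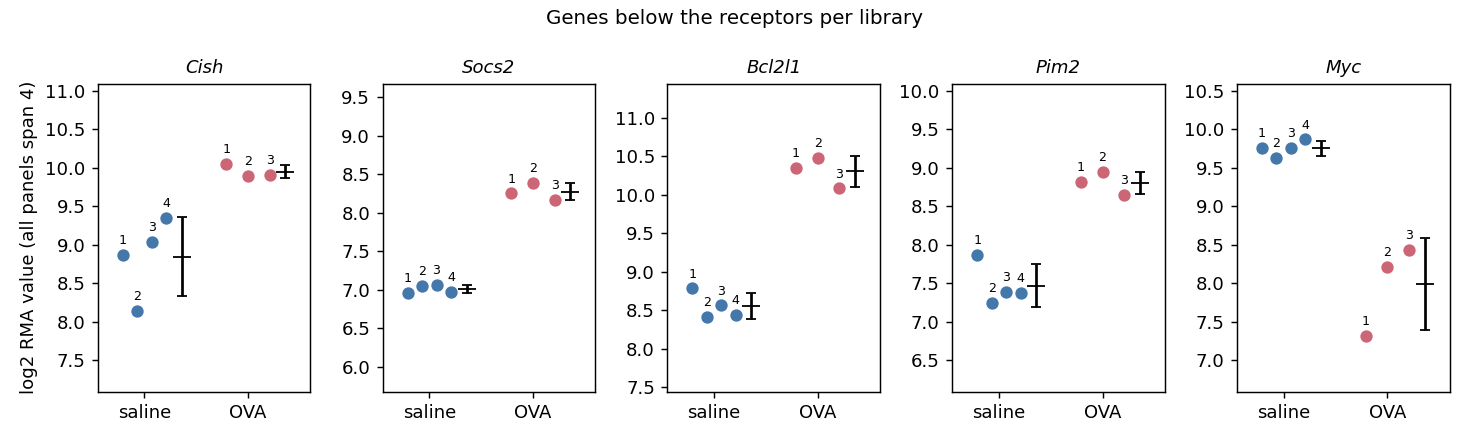
Level of 5 genes that act below the receptors in every library, as log2 RMA value, for saline (blue, 1 to 4) and OVA (red, 1 to 3), with mean and SD. All panels span 4 log2 units. The genes shown were chosen among the called genes. Every OVA library lies above every saline library for Cish, Socs2, Bcl2l1 and Pim2 and below for Myc. Of all genes 11% lay apart upwards and 8.6% downwards.

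The 5 chains belong to the type I cytokine receptor family, of which 28 other chains were measured. Of the 28, limma called 2 higher and 2 lower (of all genes, 5.27% and 1.17%). The median difference of the 28 was -0.04. Il4ra and Il13ra1, which form the IL-4 and IL-13 receptor, rose by 1.02 and 0.98. Il2rg, the gamma chain shared by several interleukin receptors, fell by 0.61 from 10.96 ± 0.23 to 10.35 ± 0.04 (SE 0.13, limma adjusted p = 0.0261). Il12rb2, an IL-12 receptor chain, fell by 1.20 from 9.80 ± 0.29 to 8.60 ± 0.31 (SE 0.19, limma adjusted p = 0.00614). The calls on Il4ra, Il13ra1 and Il2rg were each lost without saline replicate 1 (0.0507, 0.0719 and 0.0566) and without each OVA library in turn (0.0622 to 0.164), and that on Il2rg also without saline replicate 3 (0.0597). The call on Il13ra1 was also lost without saline replicate 2 (0.0671), and those on Il4ra and Il13ra1 without saline replicates 1 and 2 together (0.0757 and 0.108). Median centring ended the calls on Il13ra1 (0.0508) and Il2rg (0.0609), and fitting all probe sets ended those on Il4ra, Il13ra1 and Il2rg (0.0646 to 0.107). Crlf2, the receptor chain for the epithelial cytokine TSLP, differed by -0.03, Il6ra by -0.37 and Il11ra1 by -0.04, and none was called. The ranges of Il6ra lay apart, lower in OVA, and it was called lower with array weights (-0.45, limma adjusted p = 0.0272). The signs of Crlf2 and Il11ra1 turned under median centring and array weights, respectively.

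Transcription factors that set the eosinophil lineage were read beside the promoter sequences of the chains, which RefSeq holds for 4 of the 5 genes in the table used. Of 13 lineage factors 2 rose and 1 fell (of all genes, 5.27% and 1.17%). The median difference of the list was 0.11. Gata1, which mice need to form eosinophils, was 8.70, 7.94, 8.68 and 9.01 in saline and 8.75, 8.72 and 8.62 in OVA (difference 0.11, limma adjusted p = 0.755). The sign of Gata1 turned under a second quantile normalization and cyclic loess. Cebpe, a factor of granulocyte maturation, rose by 0.98 (SE 0.16, limma adjusted p = 0.00653) and Xbp1, a factor of secretory cells that mouse eosinophil development requires, by 1.62 (SE 0.17, limma adjusted p = 0.000734). Spi1, which encodes PU.1, fell by 0.71 (SE 0.17, limma adjusted p = 0.0391), a call lost without saline replicate 1, 3 or 4 (0.0898, 0.0842 and 0.0601), without saline replicates 3 and 4 together (0.0706) or without OVA replicate 1, 2 or 3 (0.143, 0.0795 and 0.144), and after median centring (0.0825), with all probe sets fitted (0.108) or with the replicate block (0.0728). The bright members Id2 and Trib1 differed by -0.20 and -0.19 and were not called.

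The motif GATAA or its reverse complement TTATC, read by GATA factors, was found in the 250 bases before the start site of Il5ra and of Csf2rb2, and not in those of Il3ra and Csf2ra. These 2 stretches are shown with the motif in capitals, 5′ to 3′ on the gene's strand, from RefSeq on GRCm38.p6. The Il5ra stretch is chr6:106749038-106749287 and that of Csf2rb2 is chr15:78305722-78305971, both on the minus strand.
Il5ra: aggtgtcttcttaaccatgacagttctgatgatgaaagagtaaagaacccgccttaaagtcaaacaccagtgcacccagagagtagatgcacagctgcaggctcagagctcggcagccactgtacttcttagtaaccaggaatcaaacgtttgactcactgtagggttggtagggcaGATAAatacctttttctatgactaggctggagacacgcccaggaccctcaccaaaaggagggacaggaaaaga
Csf2rb2: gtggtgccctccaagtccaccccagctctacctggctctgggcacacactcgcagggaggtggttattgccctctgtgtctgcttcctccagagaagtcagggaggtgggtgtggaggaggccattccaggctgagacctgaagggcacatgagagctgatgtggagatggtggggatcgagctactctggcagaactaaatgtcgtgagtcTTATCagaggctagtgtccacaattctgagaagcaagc
The match begins at position -73 from the start site in Il5ra and at -38 in Csf2rb2, and 22.5% of 32536 mouse promoter windows of this length hold 1 or more. The STAT5 motif TTCNNNGAA was found in Csf2rb2 (7.04% of windows). AGGAAG or CTTCCT, the core read by PU.1 and other ETS factors, was found in Il3ra, Csf2ra and Csf2rb2 (29.6% of windows), and the C/EBP motif TTGCNNAA or TTNNGCAA in Il3ra (9.57%). The window of Il3ra lies inside the annotated gene, and that of Csf2ra overlaps the annotated gene where its AGGAAG matches lie. The start sites used for Il3ra and Csf2ra are thus not the outermost annotated ones. No match to these 4 motifs overlapped another, and a match describes the letters only.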

How the data were processed

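Each library was hybridised to 1 array. The authors deposited log2 values, and the submitters' processing notes name RMA, with no version. The annotated table supplied gene symbols only, since its 7 value columns match no sample label and were not used. Symbols were updated through RefSeq (GRCm38.p6, used for names and neighbours), by accession for 16836 probe sets, symbol for 1296 and synonym for 676, while 981 kept theirs and 15768 had none. Where a gene had several probe sets (847 genes), the brightest on average was used, leaving 18190 genes with no filter. Genes were compared with limma 3.58.1 (R 4.3.3), lmFit and eBayes, group as the only term. The number of arrays limits the precision.

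The receptor chains, gene lists, marker lists and alternatives were chosen with earlier results of these data known. Genes named are the 5 chains, the 3 ligands, each called member of the signalling, regulator, target, type I chain and lineage lists with up to 3 bright uncalled members, and the 3 genes closest to each chain. Jak2, Stat5a, Stat5b, Lyn, Sos1, Gab2, Ptpn11, Btk, Pim1, Osm, Ccnd2, Cblb, Sh2b3, Socs1, Socs3, Ptpn2 and Pias1 were added after their values were seen. The cell type markers named lie outside this rule and were named with their values known. Alternatives were other scalings, probe set rules, filters, variance models, left-out libraries and the replicate number as a block. One gene that this rule names is not reported here.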

Additional observations from a re-analysis of the deposited data

How the results depend on the processing

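The 5 receptor chains kept their sign under all alternatives and their side of the threshold under all but the following: Il5ra was called lower after a second quantile normalization (-0.53) and without saline replicates 1 and 2 together (-0.70). With 1 library left out, Il5ra differed by -0.49 to -0.21. Il5ra and Il3ra could not be tested with dim genes left out, since their mean lay under the cutoff of 9.19. The causes of these shifts were not tested.

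Counts of all genes higher were 1647 with array weights, 295 with dim genes left out (2118 genes tested) and 2191 without saline replicates 3 and 4. Counts lower were 507 after quantile normalization, 120 after median centring, 473 after cyclic loess, 677 with array weights, 138 with dim genes left out, 101 with all probe sets fitted, 404 without saline replicates 1 and 2 and 989 without saline replicates 3 and 4. With 1 library left out they ran from 366 to 1219 higher and 67 to 266 lower. The labels do not say if replicate numbers pair the libraries, and no pairing was seen. Deviations of the pairs with the same number correlated at 0.273, -0.137 and 0.241, and those with different numbers from -0.475 to 0.455. So few pairs cannot exclude a pairing. With the replicate block 1360 were higher and 318 lower, 0 of 5 chains were called, the calls on Il1rl1 and Spi1 were lost, Cdkn1a and Bcl2a1d were called, and not every library correlated best with its own number.

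The ratio of Csf2ra to Csf2rb differed by -0.12 without saline replicates 1 and 2, and by -0.09 to 0.057 with 1 library left out. The ratio alternative with the mean of all probe sets equals the value given, as each chain has 1. With 1 library left out, members higher were 4 to 8 of the targets, 1 to 3 of the negative regulators, 0 to 3 of the signalling genes and 0 to 2 of the other type I chains, and lower 0 to 1 of the signalling genes, 1 to 2 of the other chains and 0 to 1 of the lineage factors. Over all alternatives, members called higher ran from 0 to 3 for signalling, 1 to 5 for negative regulators, 4 to 9 for targets, 0 to 3 for other type I chains and 0 to 2 for lineage factors, and was 0 for receptor chains. Members called lower ran from 0 to 2 for signalling, 0 to 1 for negative regulators, targets, lineage factors and receptor chains, and 1 to 3 for other chains. Without saline replicates 1 and 2, counts higher were 0, 2, 5, 0 and 2 in the order given, and without saline replicates 3 and 4 they were 3, 5, 8, 2 and 2. Ranges over all alternatives among markers were 2 to 11 higher for alveolar macrophages, 0 to 4 for neutrophils, 0 to 4 for epithelium, 0 to 2 for monocytes and 3 to 4 higher and 1 to 5 lower for eosinophils.

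Signs of uncalled genes turned as follows, besides those of Pim1, Osm, Ccnd2 and Socs3. After quantile normalization Il5 differed by 0.14, Il3 by 0.0062, Ptpn6 by -0.013, Ptpn1 by -0.078, Gata1 by -0.074 and Usp9x by -0.0014. After cyclic loess Il5 differed by 0.12, Ptpn1 by -0.046 and Gata1 by -0.0401, and after median centring Il5 by 0.028, Stat5a by 0.016 and Crlf2 by 0.0025. With array weights Il5 differed by 0.21, Il3 by 0.016, Ptpn1 by -0.0058, Stat5b by 0.0094, Il11ra1 by 0.0037 and Actr2 by 0.00038. Without saline replicates 1 and 2 Jak2 differed by -0.06, Il5 by 0.032, Ptpn6 by -0.14, Ptpn1 by -0.27, Il11ra1 by 0.0033, Gata1 by -0.15, 4930515G13Rik by 0.0033 and Krtap17-1 by 0.022, and without saline replicates 3 and 4 Churc1 by 0.01 and Rps21 by 0.0067. With 1 library left out the ranges were -0.17 to 0.18 for Il5, -0.10 to 0.19 for Ptpn6, -0.18 to 0.16 for Ptpn1, -0.05 to 0.013 for Crlf2, -0.12 to 0.043 for Il11ra1, -0.10 to 0.26 for Gata1, -0.0033 to 0.23 for Jak2, -0.063 to 0.038 for Stat5a and -0.16 to 0.023 for Stat5b.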
